A study of Mus musculus with 6 samples.

Results

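The genes described here are the homeobox genes of the 4 Hox clusters of the mouse, Hoxa, Hoxb, Hoxc and Hoxd. They were taken by symbol from the 22180 genes that an array probe with a single gene symbol represented, and 36 genes met the rule. Hox genes without such a probe, Hoxa11 and Hoxd4 among them, were not analysed here. The measured members were 9 Hoxa genes on chromosome 6, 10 Hoxb genes on chromosome 11, 9 Hoxc genes on chromosome 15 and 8 Hoxd genes on chromosome 2. Expression was measured on 6 arrays, 3 from YFP-positive and 3 from YFP-negative LSK cells, the lineage-negative bone marrow cells with surface Sca-1 and Kit among which blood stem cells and multipotent progenitors are found.

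Both populations were sorted from the marrow of C57Bl6 mice carrying Tg(Cdh5-Cre/ERT2), a tamoxifen-inducible Cre, and a Rosa 26 YFP reporter. All mice received tamoxifen daily from postnatal day 1 to postnatal day 3 and were analysed at postnatal day 27, 26 days after the first induction, so the YFP-negative cells carried the same alleles and had the same treatment. The Cdh5 promoter drives the Cre, and Cdh5 encodes VE-cadherin, the junction protein of endothelium. YFP therefore marks cells in which Cre was active and the cells that descend from them, and an unmarked cell may come from an endothelial cell in which recombination did not occur. Whether the replicates were separate animals is not stated in the labels. The p-values then measure only how these samples vary, which may be technical variation.

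Hox proteins are transcription factors that bind DNA through a homeodomain, often together with the TALE homeodomain partners of the Pbx and Meis families. Within a cluster the genes stand in a row, and low position numbers belong to genes first used near the head and high numbers to genes used towards the tail. In blood, genes of the Hoxa and Hoxb clusters are active in stem and progenitor cells and fall silent during maturation, whereas endothelial cells express sets of Hox genes that differ with the vessel bed.

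Markers of the sorted populations were read first. Cdh5, the gene whose promoter drives the Cre, had values of 11.6, 11.8 and 11.3 on the YFP-positive arrays, against 5.40, 4.55 and 3.71 on the YFP-negative arrays. All 8 endothelial markers were higher, and their median per array was 9.86 to 10.1 in YFP-positive and 3.70 to 4.35 in YFP-negative cells. A list of Kit and 4 markers of subsets of LSK cells (Cd34, Flt3, Slamf1 and Cd48) had 4 of 5 genes lower, all but Slamf1, and its median was 4.01, 4.92 and 6.37 on the YFP-positive arrays, against 8.55, 8.64 and 8.79 on the YFP-negative arrays. Ly6a, the gene of Sca-1, was not analysed here. Kit, the only measured gene of the gate itself, averaged 6.86 in YFP-positive cells and 7.76 in YFP-negative cells (limma adjusted p = 0.0496). The YFP-positive cells, labelled as LSK, thus had endothelial markers at high levels, and Kit was lower in them. YFP-positive replicate 3 stood apart in a list of 8 leukocyte genes, of which 1, Vav1, was called and lower. The medians of this list were 5.95, 6.18 and 9.03 on the YFP-positive arrays, against 8.86, 8.73 and 9.06 on the YFP-negative arrays.

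Hoxa9 was the member that fell, and Hoxb8 was the member that rose. The other 34 members did not pass the test, which was limma at an adjusted p under 0.05, with p-values adjusted by the Benjamini-Hochberg method for the 22180 genes fitted. Hoxa9 was 2.91-fold lower in YFP-positive than in YFP-negative cells, and Hoxb8 was 1.95-fold higher. The members called made up 5.56% of the 36 Hox genes, against 4.84% of all genes tested, and the calls over all genes divided into 2.88% higher and 1.96% lower in YFP-positive cells. The share of Hox genes called was thus near that of all genes. The median log2 difference, YFP-positive minus YFP-negative, was 0.08 over the 36 Hox genes and -0.0073 over all genes, and 23 Hox genes lay above 0 and 13 below.

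Without adjustment, 6 Hox genes were higher at a p under 0.05, or 16.7% of the members against 7.79% of all genes. Another 2 were lower, or 5.56% against 9.44%. For 8 Hox genes every YFP-positive array lay above every YFP-negative array, or 22.2% against 10.8% of all genes. For 4 Hox genes, or 11.1% against 11.9%, every YFP-positive array lay below. The 95% interval stayed between -1 and 1 for 27 of the 36 Hox genes (75.0%, against 72.7% of all genes). For 14 of these 27 every array lay at or below its median, and a narrow interval at such a level does not bound a change in expression.

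**Figure D1:**
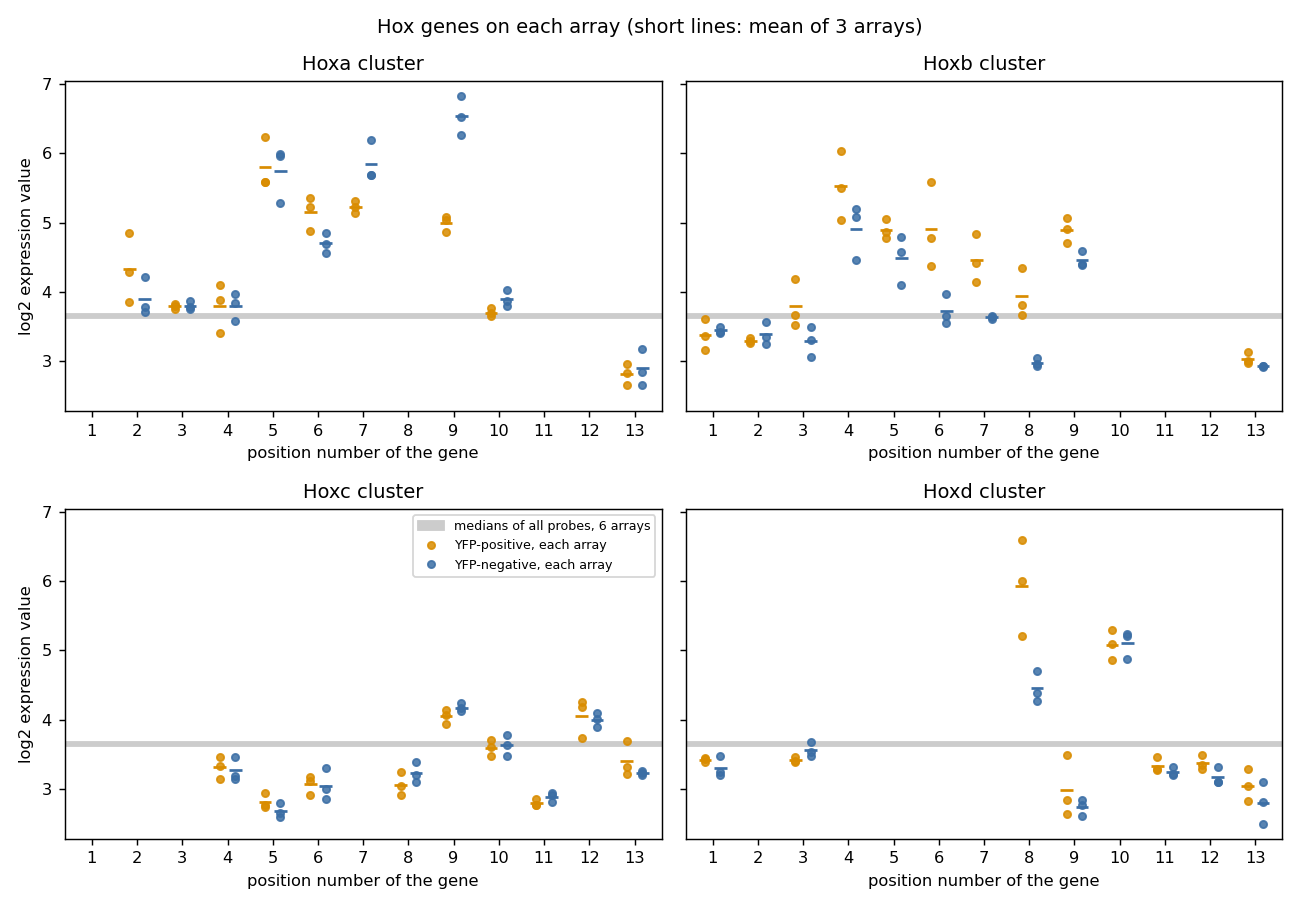
Each point is the log2 expression value of a Hox gene on 1 array (vertical axis), placed by the position number of the gene in its cluster (horizontal axis), with YFP-positive arrays left of YFP-negative arrays, short lines at the mean of 3 arrays and a grey band at the medians of all probes. The YFP-positive points of Hoxa9 lie below all its YFP-negative points, those of Hoxb6 to Hoxb9 and Hoxd8 lie above, and the 9 Hoxc genes overlap throughout.

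Hoxa9 supports self-renewal and the growth of early progenitors, and its overexpression with Meis1 drives myeloid leukaemia in mice. Its log2 values were 4.87, 5.08 and 5.04 on the YFP-positive arrays, against 6.27, 6.82 and 6.52 on the YFP-negative arrays. The populations were set apart by more than the spread within either. Hoxa9 averaged 4.997 ± 0.12 in YFP-positive cells and 6.54 ± 0.28 in YFP-negative cells (SD, n = 3 each), a difference of -1.54 ± 0.17 (SE) with a 95% interval of -1.95 to -1.13 and a limma adjusted p of 0.00734. The call held in all 6 fits that left out 1 array, with differences between -1.68 and -1.40. In these bulk samples, fewer cells that express a gene and less of its RNA per cell cannot be told apart.

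Hoxb8 blocks the maturation of myeloid progenitors when it is overexpressed, a property used to keep such cells growing in culture. Its values were 3.67, 3.81 and 4.34 on the YFP-positive arrays, against 2.92, 3.05 and 2.96 on the YFP-negative arrays. All 3 YFP-negative values stood below the medians of the arrays, which ran from 3.62 to 3.68. Hoxb8 averaged 3.94 ± 0.36 in YFP-positive cells and 2.98 ± 0.067 in YFP-negative cells, a difference of 0.96 ± 0.19 with a 95% interval of 0.49 to 1.43 and a limma adjusted p of 0.0493. The groups did not overlap, but the call was at the edge of the threshold and remained in 1 of the 6 fits with an array removed, the one without YFP-positive replicate 3. No detection calls were used, so a fold against a level this dim can understate the change.

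The promoters of both called genes are shown because these genes moved in opposite directions. They run from 250 bases before to 50 bases after the RefSeq start in build GRCm38.p6, 5′ to 3′ on the strand of the gene, and capitals mark a match to the PBX-HOX composite motif TGATNNAT on either strand. The Hoxa9 promoter lies at chr6:52227321-52227620 on the minus strand, and the Hoxb8 promoter at chr11:96281655-96281954 on the plus strand.
Hoxa9: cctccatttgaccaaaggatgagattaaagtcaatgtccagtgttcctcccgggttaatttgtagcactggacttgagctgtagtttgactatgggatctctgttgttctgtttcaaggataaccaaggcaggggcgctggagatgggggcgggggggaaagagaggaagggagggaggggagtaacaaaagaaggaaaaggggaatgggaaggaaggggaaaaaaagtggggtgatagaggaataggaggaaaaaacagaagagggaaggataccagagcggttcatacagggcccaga
Hoxb8: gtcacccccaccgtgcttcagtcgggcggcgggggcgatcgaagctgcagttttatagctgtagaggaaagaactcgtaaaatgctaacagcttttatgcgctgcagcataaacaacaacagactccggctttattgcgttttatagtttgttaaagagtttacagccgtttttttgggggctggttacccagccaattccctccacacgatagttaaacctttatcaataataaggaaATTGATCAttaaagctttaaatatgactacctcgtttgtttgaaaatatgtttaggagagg
The Hoxb8 window held 1 match, from 11 to 4 bases before the start, and 13 CpG dinucleotides at a GC content of 42.3%. The Hoxa9 window held no match, and 4 CpG dinucleotides at 49.7% GC. The motif occurred in 8.85% of 32851 RefSeq promoters of the same length and in 4 of the 22 promoters of 20 measured Hox genes, those of Hoxa2, Hoxb1, Hoxb8 and Hoxd11. The MEIS motif TGACAG, searched on both strands as well, occurred in 19.2% of all promoters and in those of Hoxa2 and Hoxa3 among the 22. The median promoter held 17 CpG dinucleotides in the Hox set and 7 among all promoters. Both windows therefore held fewer than the median Hox promoter.

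The Hoxb cluster held 4 of the 6 members that were higher at an unadjusted p under 0.05, or 40.0% of its genes against 7.79% of all genes. Its median difference was 0.47, with 8 of 10 genes above 0, and the median deviation of its genes from their YFP-negative means was 0.59, 0.48 and 0.23 on the 3 YFP-positive arrays. Besides Hoxb8, the genes at an unadjusted p under 0.05 were Hoxb6, Hoxb7 and Hoxb9, which stand next to Hoxb8 in an unbroken row of Hox genes on the chromosome. None of these neighbours passed the adjusted test. In 6 of the 10 Hoxb genes (60.0%, against 10.8% of all genes) every YFP-positive array lay above every YFP-negative array. In the other 4 the groups overlapped. Among the 6, Hoxb13 stood above the array median on no array and Hoxb3 on 2 arrays.

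Hoxb6, a gene of the trunk that is also transcribed in blood progenitors, had values of 4.38, 5.59 and 4.77 on the YFP-positive arrays, against 3.97, 3.66 and 3.55 on the YFP-negative arrays. The difference was 1.18 ± 0.32 (95% interval 0.41 to 1.96, limma adjusted p = 0.113). Its spread was wide in YFP-positive cells (SD 0.62), where replicate 2 stood highest. Hoxb7 had values of 4.83, 4.14 and 4.42 in YFP-positive cells and 3.65, 3.61 and 3.64 in YFP-negative cells, a difference of 0.83 ± 0.19 (limma adjusted p = 0.0704). The YFP-negative values of Hoxb7 lay close to the array medians. Hoxb9 had values of 5.06, 4.91 and 4.70 in YFP-positive cells and 4.40, 4.60 and 4.38 in YFP-negative cells, a difference of 0.43 ± 0.14 (limma adjusted p = 0.172). The gap between the groups was narrower for Hoxb9 than for Hoxb6, Hoxb7 and Hoxb8.

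Hoxb4, whose overexpression expands blood stem cells in culture, had values of 6.03, 5.50 and 5.04 on the YFP-positive arrays, against 5.08, 4.46 and 5.20 on the YFP-negative arrays. The groups overlapped, and the difference of 0.61 had a 95% interval of -0.15 to 1.37 (limma adjusted p = 0.404). Hoxb5, whose reporter marks long-term stem cells in mouse marrow, averaged 4.90 ± 0.14 in YFP-positive cells and 4.49 ± 0.36 in YFP-negative cells, a difference of 0.41 ± 0.20 (limma adjusted p = 0.380). A second probe of Hoxb5 was measured as well, and both probes differed by at most 0.44. Hoxb3 and Hoxb13 had separate groups with differences of 0.50 and 0.11, neither past the test. A brighter probe that names both Hoxb3 and Hoxb2, left out of the gene table, had overlapping groups. Its difference was 0.30 (limma adjusted p = 0.678 in a fit over all probes). For Hoxb1 and Hoxb2, at the other end of the cluster from Hoxb9 and Hoxb13, the differences were -0.069 and -0.091.

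The Hoxa cluster moved in no single direction. Its median difference was -0.013, with 4 genes above 0 and 5 below, and it ran from -0.15 without YFP-positive replicate 1 to 0.059 without YFP-negative replicate 1. Hoxa7, another gene of early progenitors and of leukaemias with a rearranged Kmt2a, had values of 5.22, 5.32 and 5.14 on the YFP-positive arrays, against 5.68, 6.20 and 5.68 on the YFP-negative arrays. The groups did not overlap, and the difference was -0.63 ± 0.17 (95% interval -1.04 to -0.21, limma adjusted p = 0.118). One brighter probe, kept out of the gene table because it names Hoxa7 together with the transcript Mira, showed no such gap. For that probe the groups overlapped, and the estimate of 0.033 came with a wide 95% interval, from -1.37 to 1.44 (limma adjusted p = 0.989, fit over all probes). Hoxa10, which promotes progenitor growth at the cost of maturation when overexpressed, averaged 3.70 ± 0.056 in YFP-positive cells and 3.90 ± 0.12 in YFP-negative cells. That is a difference of -0.20 with separate groups (limma adjusted p = 0.463).

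Hoxa6, the neighbour of Hoxa7 on the chromosome, lay on the other side of 0. Its values were 4.87, 5.35 and 5.23 on the YFP-positive arrays, against 4.56, 4.69 and 4.85 on the YFP-negative arrays, a difference of 0.45 ± 0.16 (limma adjusted p = 0.228). Hoxa5, which restrains vessel growth and favours the myeloid lineage in human cells, had values of 6.24, 5.59 and 5.59 in YFP-positive cells and 5.97, 5.28 and 5.99 in YFP-negative cells. Here the groups overlapped, with a difference of 0.06 and a 95% interval of -0.60 to 0.73 (limma adjusted p = 0.951). The 6 Hoxa genes at an unadjusted p of 0.05 or more had differences from -0.20 to 0.42.

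The Hoxd cluster was led by Hoxd8, a gene of trunk patterning. Its values were 5.20, 6.59 and 6.001 on the YFP-positive arrays, against 4.27, 4.70 and 4.38 on the YFP-negative arrays. All YFP-positive values stood above all YFP-negative values, but their SD was 0.70, and the 2.79-fold difference of 1.48 ± 0.35 (95% interval 0.62 to 2.34) had a limma adjusted p of 0.0831. Without YFP-positive replicate 1, the lowest of the 3, the difference was 1.85 and the adjusted p 0.0316. Hoxd10, which keeps human endothelial cells quiescent, had values of 4.86, 5.09 and 5.30 in YFP-positive cells and 5.21, 5.24 and 4.88 in YFP-negative cells. The groups of Hoxd10 overlapped, with a difference of -0.026 and a 95% interval of -0.43 to 0.38 (limma adjusted p = 0.966). Hoxd3, which promotes the invasive state of human endothelial cells, had separate groups with a small difference of -0.14 (limma adjusted p = 0.594). The 7 Hoxd genes other than Hoxd8 had differences from -0.14 to 0.25.

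In the Hoxc cluster no gene was called, and none had an unadjusted p under 0.05. The differences ran from -0.17 in Hoxc8 to 0.17 in Hoxc13, and the groups overlapped in all 9 genes. The median of 0.017 lay on either side of 0 when 1 array was left out (-0.042 to 0.0063). Each of the 9 intervals lay between -1 and 1, in measured log2 value. Mean levels of the Hoxc genes lay between 2.80 and 4.06 in YFP-positive and between 2.68 and 4.17 in YFP-negative cells. Hoxc9 and Hoxc12 stood above the array median on all 6 arrays, Hoxc10 and Hoxc13 on some and the other Hoxc genes on none. At levels below the median, a gene that is not expressed cannot be told from one expressed at a low level. Over all clusters, 13 Hox genes stood above the array median on all 6 arrays, 9 on some and 14 on none. Of the 14 on none, 0 were called and 0 had an unadjusted p under 0.05.

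Read by position number across clusters, the median difference was highest in the middle. The 11 genes at positions 5 to 8 had a median difference of 0.41. At an unadjusted p under 0.05, 5 of them were higher (45.5%, against 7.79% of all genes) and 1 lower (9.09%, against 9.44%). By cluster, the median at these positions was 0.90 for 4 Hoxb genes, 0.06 for 3 Hoxa genes and 0.02 for 3 Hoxc genes. Hoxd8 was the only Hoxd gene there. The 10 genes at positions 1 to 4 had a median of 0.02, and the 15 genes at positions 9 to 13 a median of 0.06. Genes of 1 position number did not always move alike in different clusters. At position 9, Hoxa9 differed by -1.54 and Hoxb9 by 0.43. At position 8, Hoxb8 and Hoxd8 differed by 0.96 and 1.48, in the same direction. Hoxc8 differed by -0.17, but it overlapped and stood above the array median on no array, so its direction cannot be read. These are descriptions of single genes, and differences between genes were not tested.

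**Figure D2:**
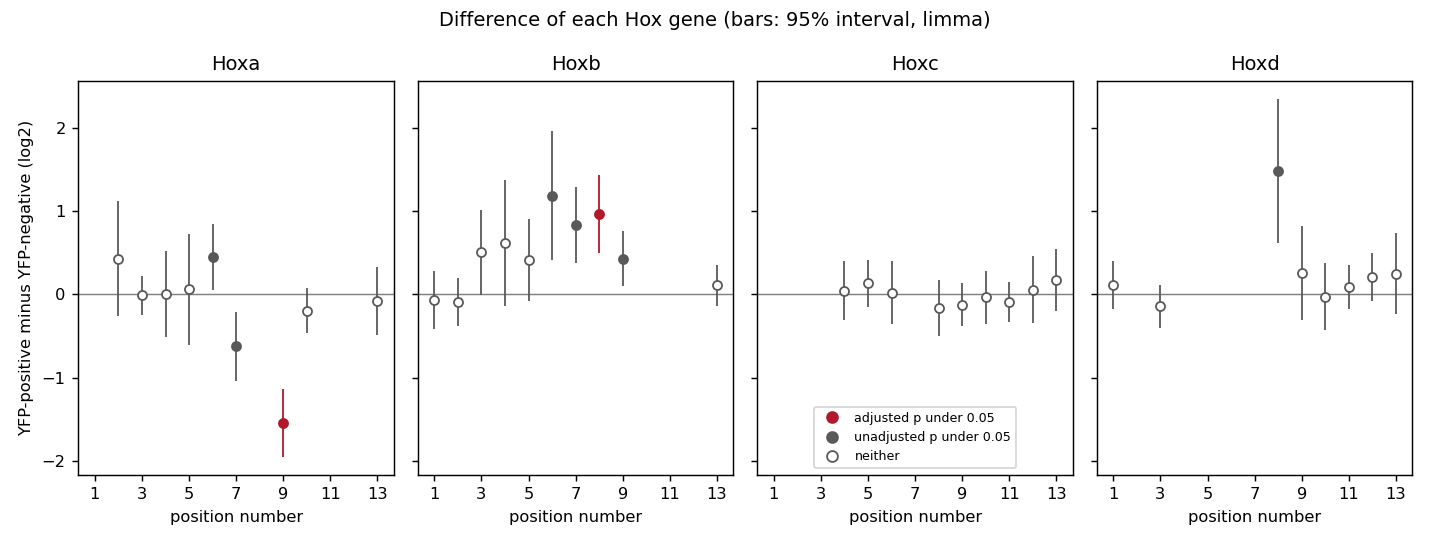
Difference between YFP-positive and YFP-negative cells (vertical axis, log2, YFP-positive minus YFP-negative) for each Hox gene by its position number (horizontal axis) in 4 panels, with bars for the 95% interval of the limma fit. Hoxa9 at -1.54 and Hoxb8 at 0.96 are past the adjusted threshold, grey filled points had an unadjusted p under 0.05, and all 9 Hoxc intervals cross 0.

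Among the partners of Hox proteins, Meis1 fell. This TALE factor binds DNA with Hoxa9 and Pbx proteins and is needed in blood stem cells. Its values were 4.35, 4.96 and 5.35 on the YFP-positive arrays, against 7.89, 7.42 and 7.39 on the YFP-negative arrays, and it was 6.40-fold lower (limma adjusted p = 0.00672). The other 8 of the 9 measured cofactors did not pass, and the list's median difference was 0.10. The share called was 11.1%, against 4.84% of all genes. At an unadjusted p under 0.05, 11.1% were higher and 11.1% lower, against 7.79% and 9.44%. Meis2 and Meis3 differed by 0.16 and 0.10, and Pbx2 by 0.70 with separate groups (limma adjusted p = 0.195).

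Genes that set or keep Hox transcription were called about as often as all genes, with 1 of 20 activating and 1 of 19 Polycomb-related genes against 4.84%. Of 20 genes of the activating side, which holds Kmt2a and its complex partners, the Dot1l complex, the Cdx factors and histone acetyltransferases, 1 fell and 19 did not pass. The one that fell was Mllt3, a reader of acetylated histones that supports human blood stem cells (difference -1.59 ± 0.30, limma adjusted p = 0.0424). The median of this list was -0.34, with 14 genes below 0, 8 of them at an unadjusted p under 0.05 (40.0%, against 9.44% of all genes). Kmt2a, the methyltransferase that maintains Hoxa9 transcription, averaged 6.87 in YFP-positive cells and 7.78 in YFP-negative cells (limma adjusted p = 0.144). Psip1, which tethers the Kmt2a complex to chromatin, differed by -1.20 (limma adjusted p = 0.0712). Of 19 Polycomb-related genes, mainly of the repressing side, Pcgf2 rose with a difference of 1.07 ± 0.21 (limma adjusted p = 0.0491) and 18 did not pass. Kdm6a and Kdm6b, demethylases that oppose Polycomb, and Dnmt3a, a DNA methyltransferase, were counted in this list. Pcgf2, also called Mel-18, is a subunit of a Polycomb complex, and its loss alters the axial skeleton in mice. The median of the Polycomb-related list was -0.18, with 13 genes below 0. At an unadjusted p under 0.05, 4 of its genes were lower (21.1%, against 9.44% of all genes). Another 2 were higher (10.5%, against 7.79%). Many genes of the activating and Polycomb-related lists stood above the array medians, where shares were larger. Of all genes above the array median on all 6 arrays, 15.8% were lower and 11.3% higher at that p, and 7.95% were called. Against that base the 21.1% of the Polycomb-related list stood out less, and so did the 40.0% of the activating list.

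A list of 18 genes reported as targets of Hoxa9 or Meis1, written from general knowledge, held 6 that fell, 1 that rose and 11 that did not pass, or 38.9% called against the 4.84% of all genes. Its median difference was -0.50. Cd34 and Flt3, a surface sialomucin and a receptor kinase of early progenitors, differed by -2.29 and -4.17 (limma adjusted p = 0.00279 and 0.00507). Myb, a transcription factor of progenitor growth, differed by -3.20, and Ikzf2, a factor of the Ikaros family, by -2.44 (limma adjusted p = 0.0194 and 0.0212). Tgm2, a transglutaminase abundant in endothelium, was the one that rose, by 2.78 (limma adjusted p = 0.0307); it is named because it was the single gene of its direction, after its value was seen. Cd34 and Flt3 are also in the list of Kit and LSK subset markers, so this list and that one are not independent.

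MicroRNA genes inside the clusters were measured for 4 of 6, and none was called or had an unadjusted p under 0.05. Mature forms from 2 of them are shown because miR-196a is known to direct cleavage of Hoxb8 mRNA, and miR-10b to repress HOXD10 in human cells. They are given as in RefSeq, 5′ to 3′, with the seed of bases 2 to 8 in capitals.
mmu-miR-196a-5p: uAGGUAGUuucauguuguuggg
mmu-miR-10b-5p: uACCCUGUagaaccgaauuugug
The seeds differ. The same miR-196a-5p comes from Mir196a-1 in the Hoxb cluster and Mir196a-2 in the Hoxc cluster, whose probes differed by 0.09 and -0.19 (limma adjusted p = 0.820 and 0.672). Mir10b, in the Hoxd cluster, differed by 0.04 and Mir615, in the Hoxc cluster, by -0.11 (limma adjusted p = 0.892 and 0.892). An array of amplified RNA was taken to read the primary transcripts of such genes at best, so these values say nothing of the mature forms. Of 19 other transcripts inside the clusters, 4 were measured, none was called and 1 had an unadjusted p under 0.05. It was Hoxaas3, an RNA read antisense to Hoxa genes, which averaged 4.47 ± 0.43 in YFP-positive cells and 3.70 ± 0.39 in YFP-negative cells (limma adjusted p = 0.245).

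The markers of other cells were set beside the Hox values. YFP-positive replicate 3 was the array with the high leukocyte median. There Vav1, a signalling protein of blood cells, stood at 5.22, against 7.44 to 8.16 on the YFP-negative arrays. Laptm5, at 6.54, also lay below its YFP-negative values. The rest of the leukocyte list, Ptprc, Coro1a, Lcp1, Cd53, Plek and Arhgdib, lay within or above theirs. On the same array Hoxa9 stood at 5.04, between the other two YFP-positive arrays, while Hoxb8 stood at 4.34, its highest value. Without that array the difference of Hoxa9 was -1.56 and that of Hoxb8 0.76, and both passed (limma adjusted p = 0.0179 and 0.0340). Neutrophil granule genes had medians of 9.22, 9.64 and 11.2 in YFP-positive cells and 7.24, 8.47 and 10.7 in YFP-negative cells, with 0 of 8 called and 1 at an unadjusted p under 0.05. That 1 gene, 12.5% of the list against 9.44% of all genes, was lower. Macrophage markers, at medians of 3.91 to 4.00 in YFP-positive and 3.91 to 4.24 in YFP-negative cells, had 0 of 7 called and 0 at an unadjusted p under 0.05. For stromal cells, which can express Hox genes, 0 of 7 markers were called and 3 had an unadjusted p under 0.05, with medians of 3.72, 4.60 and 4.55 in YFP-positive cells and 4.16, 3.95 and 3.91 in YFP-negative cells. The groups of these 3 did not overlap, and they went in both directions: Lepr and Cxcl12 differed by 1.87 and 1.82, and Pdgfrb by -0.30 (limma adjusted p = 0.143, 0.200 and 0.238). By either measure 28.6% of the stromal list was higher and 14.3% lower. Of all genes, 7.79% were higher and 9.44% lower at that p, and 10.8% and 11.9% had groups that did not overlap. The median difference of the stromal list was 0.15. The part of endothelial, leukocyte, neutrophil and stromal cells in the differences of Hox genes was not tested.

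**Figure D3:**
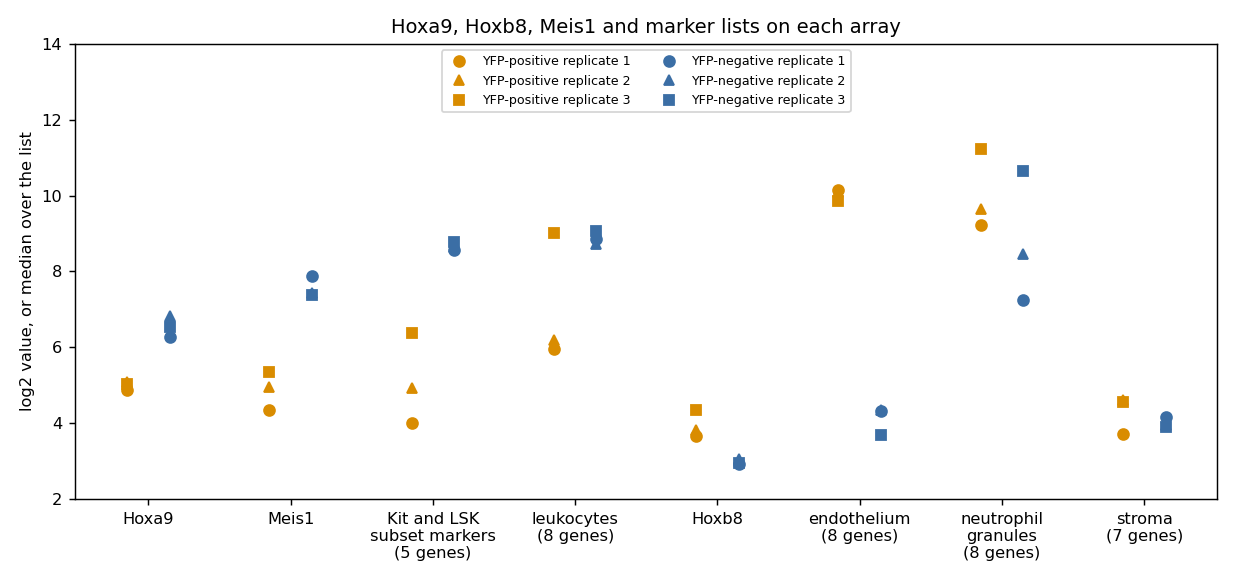
Log2 values of Hoxa9, Meis1 and Hoxb8 and the median log2 value of 5 marker lists (vertical axis) on each of the 6 arrays, with YFP-positive arrays left of YFP-negative arrays and 1 symbol shape per replicate number. The median of the leukocyte list on YFP-positive replicate 3 (9.03) lies among those of the YFP-negative arrays, while its Hoxa9 value of 5.04 stays with the other YFP-positive arrays.

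**Figure D4:**
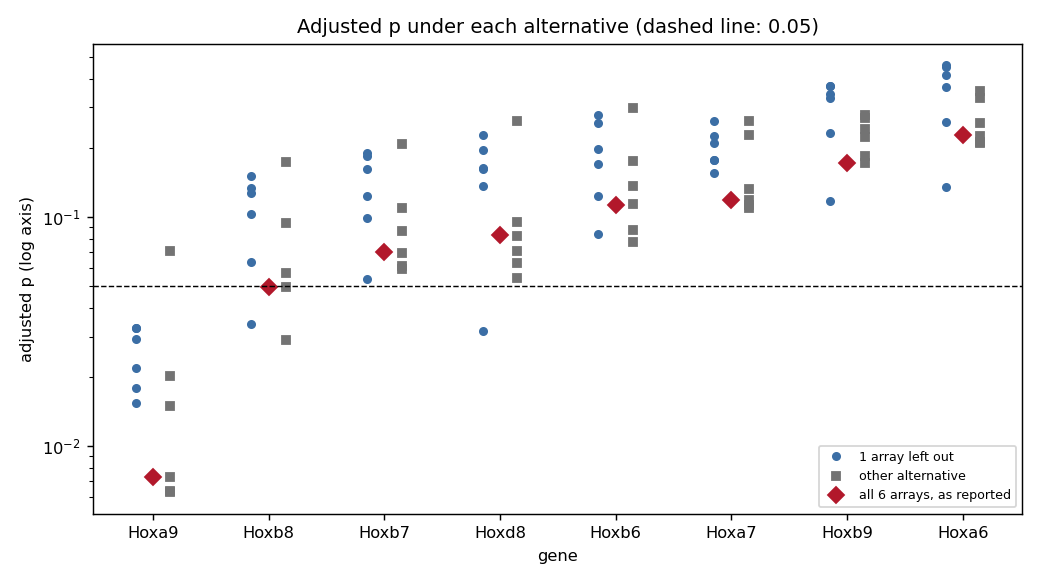
Limma adjusted p (vertical log axis, dashed line at 0.05) of the 8 Hox genes at an unadjusted p under 0.05 (horizontal axis), in the fit of all 6 arrays, in the 6 fits without 1 array and in the other alternatives. Hoxa9 lies above the line in 1 alternative, at 0.0708, and Hoxb8 lies on both sides of it, between 0.0289 and 0.174.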

How the data were processed

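RNA of all samples was isolated at the same time, amplified from picogram amounts, fragmented and labelled with biotin, per the labels' protocols. The authors deposited log2 expression values for 41345 probes on 6 arrays. Partek is the tool named, without its version, in the submitters' processing notes. How background was corrected and arrays were normalized is not given in the sources used here. That the scale is log2 was inferred from the values (1.53 to 13.7). All 6 columns were used. The number of arrays limits the precision.

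Of the probes, 23521 had 1 gene symbol in the platform annotation, 1814 had several and 16010 were not listed. For each of the resulting 22180 genes the probe of highest mean over the 6 arrays was kept, and 1082 genes had several probes. The gene identifiers of all 36 Hox members carried the same symbol in RefSeq (GRCm38.p6), which also supplied the promoters, microRNAs and gene order. The test was limma 3.58.1 under R 4.3.3 (lmFit and eBayes, two-sided, population as the only term). The p-values were adjusted over the whole table by the Benjamini-Hochberg method, with a threshold of 0.05. The fit was tested on simulated data. Tables and figures were made with Python 3.11.15, pandas 2.3.3 and matplotlib 3.10.9.

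The members, the gene lists and the tests were chosen with earlier results of these data known, and the lists come from general knowledge. Named in full were the Hox genes past the threshold, those at an unadjusted p under 0.05, and the 6 with the highest mean. Other members were named for separate groups or a known role after their values were seen, as were Kmt2a, Psip1, Pbx2, Meis2, Meis3, Hoxaas3, Kit, Vav1, Lepr, Cxcl12 and Pdgfrb. Alternatives were a replicate block, leaving out each array, an unmoderated model, an intensity trend, quantile normalization, a filter to the 12607 genes above the median of all probes (3.69, which kept 17 Hox genes), and the mean of a gene's probes.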

Additional observations from a re-analysis of the deposited data

How the results depend on the processing

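The call of Hoxa9 held in 11 of 12 alternatives and that of Hoxb8 in 3 of 11, since the filter on dim genes removed Hoxb8. A further fit, over all probes rather than genes, is not counted among these alternatives. There the Hoxa9 probe passed (limma adjusted p = 0.0193) and the Hoxb8 probe did not (limma adjusted p = 0.0935). The counts of all genes called, total, higher and lower, were 1074, 639 and 435 as reported, 580, 412 and 168 with the replicate block, and 180, 145 and 35 in the unmoderated model. Leaving out 1 array gave 430 to 1185, 319 to 668 and 111 to 517. The count of Hox genes called was 2, with 1 higher and 1 lower, and became 1, with 0 higher, under the block, quantile normalization or the filter, and 0, with 0 higher and 0 lower, in the unmoderated model, where 5 higher and 2 lower genes had an unadjusted p under 0.05. Without 1 array it was 1 to 2, with 0 to 1 higher. Arrays left out at the cost of Hoxb8 were YFP-positive replicates 1 and 2 and each YFP-negative replicate (adjusted p = 0.0635 to 0.151), and Hoxd8 passed without YFP-positive replicate 1. The median difference of the Hox genes ran from 0.031 to 0.13 when 1 array was left out, those of Hoxb and Hoxd genes from 0.35 to 0.58 and from 0.088 to 0.22, and that of the Hoxd genes became 0.73 under the filter, which kept 2 of them.

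In the fits without 1 array these uncalled genes changed sign: Hoxa3 (-0.036 to 0.024), Hoxa4 (-0.15 to 0.20, and -0.022 after quantile normalization), Hoxa5 (-0.17 to 0.19), Hoxa13 (-0.20 to 0.059), Hoxb1 (-0.19 to 0.042), Hoxc4 (-0.032 to 0.14), Hoxc6 (-0.081 to 0.14), Hoxc10 (-0.12 to 0.040), Hoxc12 (-0.042 to 0.22) and Hoxd10 (-0.14 to 0.084). With the replicate block, the adjusted p was 0.0202 for Hoxa9 and 0.0936 for Hoxb8. Deviations from the group means correlated at 0.0985, 0.0806 and 0.167 between same-numbered arrays, and every array correlated best with its own number. The labels state no block, so the main fit did not pair the samples. Whether the numbers mark pairs was not settled by these correlations. The cause of these changes was not tested. Dim levels limit what can be said of 14 Hox genes that stood above the array median on no array.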

Other observations

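Probes that carry a Hox symbol together with another symbol were left out of the gene table. There were 7 of them, of which some name Hoxa11 and Hoxd4, genes with no probe of their own. Their mean log2 values ran from 2.53 to 6.73 in YFP-positive and from 2.52 to 6.69 in YFP-negative cells, and their differences from -0.23 to 0.30. In a limma fit over all 41345 probes, 0 of the 7 passed and 0 had an unadjusted p under 0.05 (smallest adjusted p = 0.428).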
